A study of Mus musculus with 24 samples.

Results

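Keratins, desmosome proteins and the proteins of the cornified cell envelope were followed along the mouse gut, in 4 regions and in mice with and without a microbiota. The members were chosen by gene symbol alone: every probe set, a group of short probes for 1 transcript, whose annotated symbol started with Krt, Dsg, Dsc or Pkp, together with those for Lgals7, Crct1, Lor, Ivl, Dsp, Jup, Ppl, Tgm3 and Trp63. This gave 90 of the 12488 probe sets on the array, of which 89 named 1 gene each, and these covered 63 of 8252 genes. Of the 90, 64 passed a filter on low signal and were tested, covering 47 genes. By role they comprised 21 probe sets for stratified and epidermal keratins (14 tested), 7 for simple epithelial keratins (6 tested), 1 for Krt12, 21 for hair keratins (12 tested), 6 for desmosomal cadherins (5 tested), 10 for desmosomal plaque proteins (8 tested), 9 for cornified envelope proteins (all tested), 1 for Trp63 (tested), 12 for keratin-associated proteins of hair (6 tested) and 2 for Krtcap2 (both tested). Krtcap2 shares only its letters with the others, being a subunit of the complex that attaches glycans to new proteins. Evpl, Tgm1, Krt23, Dsg1 and Dsg3 were not analysed here.

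Keratins are intermediate filament proteins that pair as an acidic and a basic partner, and epithelia of different build use different pairs. Simple epithelia, such as the single cell layer of the intestine and of the gastric glands, use Krt8 and Krt18 with Krt19, Krt20 or Krt7, whereas stratified squamous epithelia use Krt5 and Krt14 in the basal layer and Krt1 with Krt10 or Krt4 with Krt13 above it. Desmosomes anchor these filaments at cell contacts through cadherins (desmogleins and desmocollins) tied to plaque proteins (desmoplakin, plakoglobin and plakophilins), and squamous cells end by crosslinking loricrin, involucrin and periplakin into an envelope. In the mouse, the upper stomach, or forestomach, is lined by squamous epithelium that keratinizes, and the rest of the stomach by glands.

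Total RNA of whole tissue was measured on 24 arrays, 3 for each of 8 groups. The groups were the corpus, jejunum, descending colon and rectum of conventional mice, whose gut is colonized by microbes, and the same 4 regions of germ-free mice, raised without any. According to the labels the corpus was all of the stomach apart from the antrum, the jejunum was the small intestine without its first and last stretches, and the descending colon and rectum were neighbouring pieces of the end of the tract. Strain, age and sex were not given in the labels, nor was it stated whether forestomach stayed in the corpus piece. Whether the 3 arrays of a group came from separate mice was not stated, and p-values therefore cover the variation among arrays only, which may be technical. In such whole-tissue samples fewer cells of a type and less RNA per cell cannot be told apart.

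Values are the deposited linear signal. Array medians ran from 68.6 to 103.7. In 3 libraries the markers of region opposed the label. Atp4a, the catalytic chain of the acid pump of parietal cells, lay between 7435 and 14479 in 5 corpus libraries and at 176 in the library labelled germ-free corpus 3, where the hindgut homeobox gene Hoxb13 stood at 1399. The library labelled conventional jejunum 3 had Apoa4, an apolipoprotein of the small intestine, at 13.8 and Hoxb13 at 1626, and the library labelled conventional rectum 1 had Apoa4 at 2766 and Hoxb13 at 41.7. These libraries were kept under their labels, and results that rest on them are given with and without them. Signal of another region was also present in germ-free rectum 1, where Atp4a stood at 1968, and Hoxb13 was low, at 112, in germ-free descending colon 1.

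The promoters of some of the members that differed between regions are shown first, since the squamous members moved together. RefSeq promoter sequences on GRCm38.p6 were found for 29 of the 47 tested genes, and the 120 bases before the transcription start are printed 5′ to 3′ on the gene's own strand. Capitals mark a TATA box searched as TATAAA or the motif of AP-1, a factor made of Fos and Jun proteins, searched as TGANTCA, both on either strand. The first 5 are from squamous genes, shown because they hold a motif, and the last 2 from simple epithelial keratins.
Krtdap, chr7:30787785-30787904 (+): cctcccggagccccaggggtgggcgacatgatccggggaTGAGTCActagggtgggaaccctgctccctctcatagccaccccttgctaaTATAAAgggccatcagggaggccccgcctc
Lor, chr3:92083143-92083262 (-): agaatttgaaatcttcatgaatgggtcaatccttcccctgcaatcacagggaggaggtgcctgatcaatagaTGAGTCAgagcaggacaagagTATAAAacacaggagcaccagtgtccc
Ivl, chr3:92573736-92573855 (-): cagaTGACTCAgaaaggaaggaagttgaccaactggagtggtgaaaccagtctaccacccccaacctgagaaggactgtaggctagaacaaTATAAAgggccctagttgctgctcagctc
Krt13, chr11:100120578-100120697 (-): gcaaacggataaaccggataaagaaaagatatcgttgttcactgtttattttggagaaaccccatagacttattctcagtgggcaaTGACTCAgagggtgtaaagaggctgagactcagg
Krt10, chr11:99389365-99389484 (-): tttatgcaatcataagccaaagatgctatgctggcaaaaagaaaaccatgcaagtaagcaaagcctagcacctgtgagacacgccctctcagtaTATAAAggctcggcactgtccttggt
Krt20, chr11:99438154-99438273 (-): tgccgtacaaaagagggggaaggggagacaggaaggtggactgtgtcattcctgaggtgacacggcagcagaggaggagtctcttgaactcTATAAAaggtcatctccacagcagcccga
Krt8, chr15:102004343-102004462 (-): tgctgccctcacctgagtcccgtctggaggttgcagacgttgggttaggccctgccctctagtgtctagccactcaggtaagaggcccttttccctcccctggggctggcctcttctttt
Over 250 bases before the start, TATAAA occurred in 16 of 32 member promoters and in 12.4% of all 32851 promoters of the table, and TGANTCA in 6 of 32 and in 6.75%. Many of the member promoters with TATAAA were of hair genes, such as Krt32, Krt33b, Krt71, Krt72 and Krt84, and not of squamous genes. The shares among squamous members alone are not given here, so whether they share a motif was not tested. In the windows printed, Krtdap, Lor and Ivl held both motifs, Krt13 held the AP-1 motif, Krt10 and Krt20 held the TATA box, and Krt8 held neither. Neither motif was in the same window of Lgals7, which is also squamous, or of the other of 2 Krt13 starts in the table. That Krt13 start did have an AP-1 match further upstream, at -196, within the 250 bases counted. A match is a run of letters and does not show that a factor bound there.

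Most stratified keratins were high in the corpus and low elsewhere. Krt4, a basic keratin of squamous mucosa such as the oesophagus, had a signal of 8217, 8569 and 9892 in conventional corpus 1 to 3 and of 9768 and 9018 in germ-free corpus 1 and 2 (probe set 100421_at). Its partner Krt13 had 6432, 4855 and 5788 in the conventional corpus and 6958 and 4017 in those germ-free libraries (100109_s_at). The 5 libraries lay close together for both genes, whatever the microbial state. In the library labelled germ-free corpus 3 the same probe sets stood at 277 and 31.0, within the range of the intestinal libraries.

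The pair of the cornifying epidermis was present beside the mucosal pair. Krt1 had a signal of 6379, 6330.1 and 8328 in the conventional corpus and of 8113 and 6426 in germ-free corpus 1 and 2. Krt10 had 6474, 5639 and 8307 in the conventional corpus and 6843 and 11089.9 in the germ-free one. In the conventional jejunum Krt1 lay between 38.8 and 63.7 and Krt10 between 20.3 and 51.1. The corpus and jejunum libraries of conventional mice did not overlap for either gene.

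Some keratins known from activated and appendage epithelium were also called higher in the corpus, though not by every probe set. Krt17 (92862_f_at) had a signal of 431, 382 and 433 in the conventional corpus and of 335 and 366 in germ-free corpus 1 and 2, against 5.4 to 26.7 in the 18 libraries of the other regions. Krt6a (104369_at) had 484, 608 and 632 in the conventional corpus, and Krt6b had 400.4, 440 and 464. In these 2 probe sets the libraries of the other regions did not fall under 83.7. A further Krt17 probe set (161496_r_at) overlapped, at 137 to 304 in the 5 corpus libraries and 62.0 to 185 in the others, and was not called. Krt16 (103589_at) did not pass the filter and overlapped too. It had 13.2 to 43.5 in the 5 corpus libraries and 2.3 to 58.0 in the 18 of the other regions.

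The basal layer keratins did not follow. Krt5, Krt14 and Krt15, which mark the basal cells of stratified epithelium, stayed at or under 29.5, 29.3 and 6.6 in all 24 libraries, and none passed the filter. Dsc3, a desmocollin of the basal layers, reached 34.9 in the conventional corpus and was not tested either. The regulator of that layer did differ: Trp63, which encodes the p63 regulator of squamous basal cells, had a signal of 393, 278 and 293 in the conventional corpus and of 368 and 256 in germ-free corpus 1 and 2, against 23.5 to 91.1 in the 18 libraries of the other regions. Col17a1, a hemidesmosome collagen of basal cells, had 316, 230.5 and 378 in the conventional corpus and 6.8 to 30.9 in those 18, but it had the lowest p of a list whose other members mostly were not called higher. A probe set at background can lack signal for reasons of its probes, which was not tested, so no absence of basal keratin RNA is stated.

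**Figure D1:**
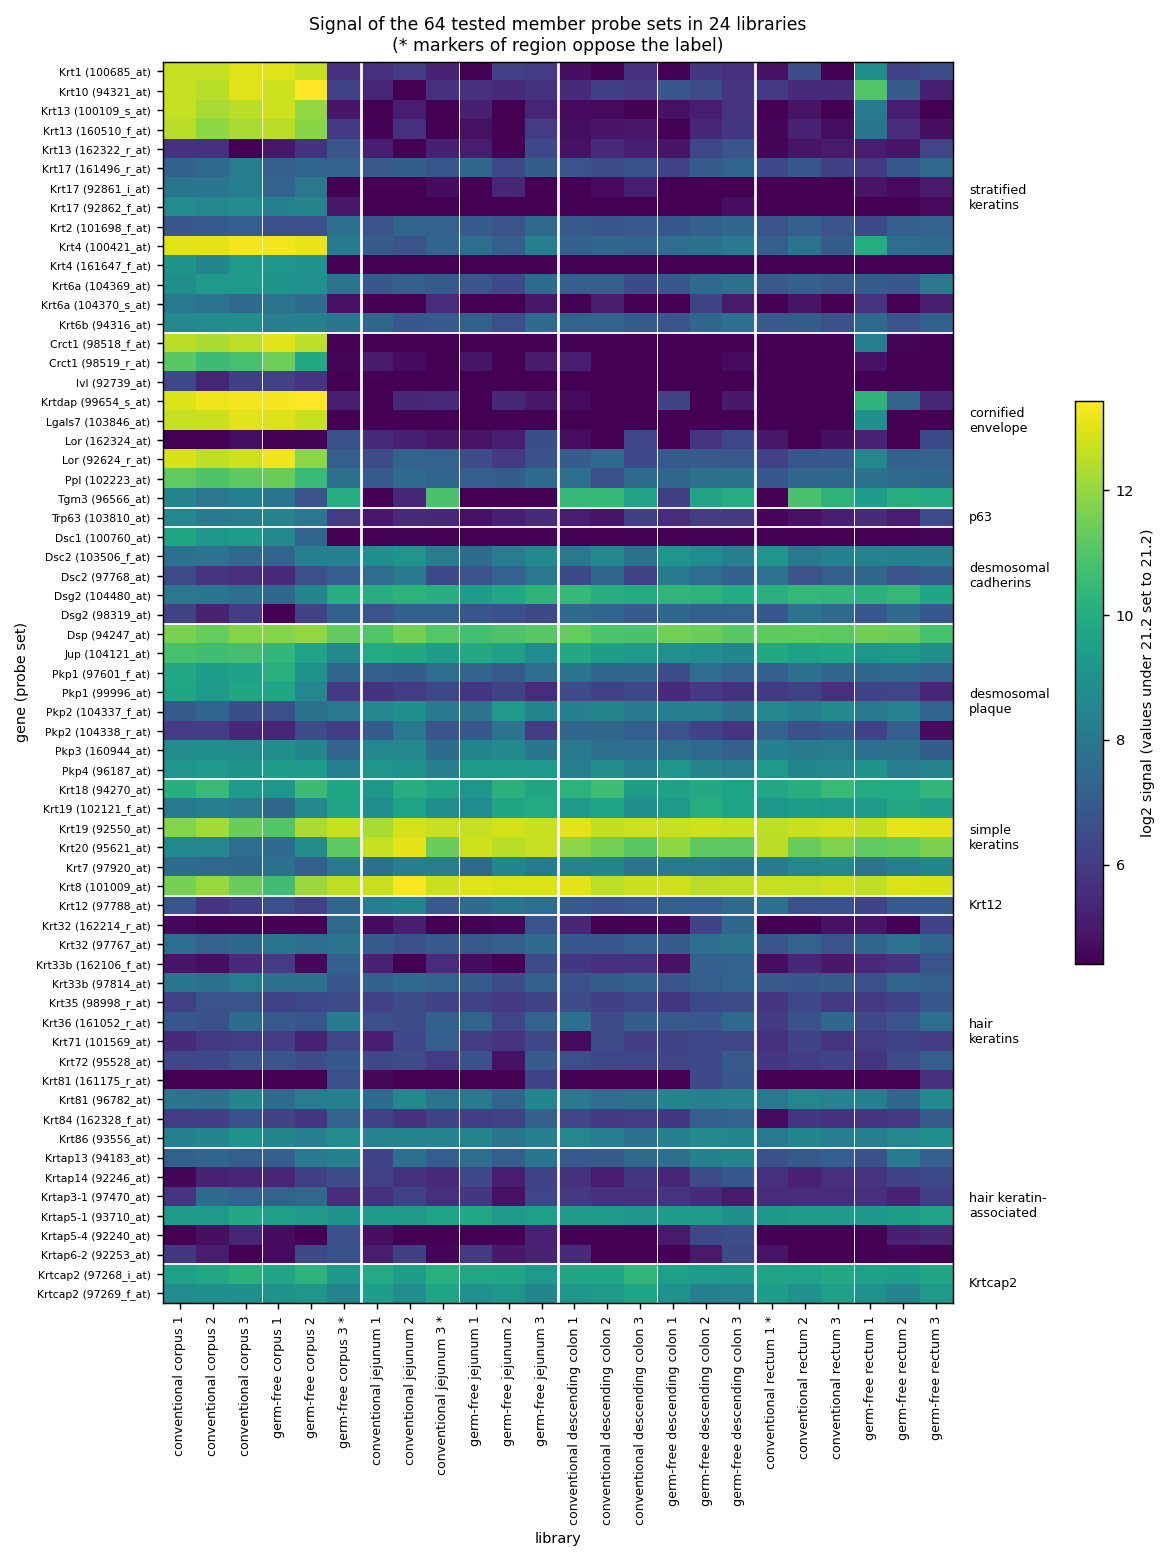
Signal of the 64 tested member probe sets, one per line and grouped by role, in the 24 libraries, on a log2 colour scale with values under 21.2 set to 21.2; asterisks mark the 3 libraries whose region markers oppose the label. Most stratified keratin and cornified envelope probe sets are brighter in 5 of the 6 libraries labelled corpus than elsewhere, and in germ-free rectum 1 several of them are above the other intestinal libraries.

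Genes of the cornified envelope followed the same course. Krtdap, a secreted product of differentiating keratinocytes, had a signal of 7789, 9347 and 9861 in the conventional corpus and of 10182 and 10823 in germ-free corpus 1 and 2. Lor, which encodes loricrin, the bulk protein of the cornified envelope, had 7614, 6104 and 6880.1 in the conventional corpus and 9438 and 3707 in the germ-free one (92624_r_at). Lgals7, a galectin of keratinocytes, had 6378, 6764 and 8375 in the conventional corpus and 7955 and 6496 in the germ-free one. For all 3 genes the lowest of these corpus libraries exceeded the highest library of any other region.

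Crct1, a gene of the epidermal differentiation cluster, was another, with 5832, 5186 and 6001 in the conventional corpus and 8251 and 5873 in germ-free corpus 1 and 2 (98518_f_at). Ppl, or periplakin, which links filaments to the envelope, had 2428, 1995 and 2325 in the conventional corpus and kept a signal of 97.5 to 226 in the 18 libraries of other regions. Ivl, or involucrin, an early envelope protein, was weak even in the corpus, with 82.8, 40.6 and 68.7 in conventional mice, and was at or under 13.1 outside it. A second Lor probe set (162324_at) was at or under 26.5 in the 5 corpus libraries and reached 99.3 in others, so the 2 Lor probe sets disagreed.

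Desmosomal genes split by isoform. Dsc1, a desmocollin of upper squamous layers, had a signal of 856, 584 and 672 in the conventional corpus, of 404 and 165 in germ-free corpus 1 and 2, and of at most 22.9 in the other regions. Pkp1, the plakophilin of squamous cells, had 857, 620.1 and 866 in the conventional corpus and 836 and 380 in the germ-free one (99996_at), against 43.4 to 88.2 in the other regions. Dsg2, the desmoglein of simple epithelia, ran the other way (104480_at), with 255, 249 and 216 in the conventional corpus and 1056, 1226 and 1042 in the conventional jejunum. None of the 5 corpus libraries overlapped the other regions for these 3 genes.

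Dsc2, the desmocollin of simple epithelia, had a signal of 219, 228 and 179 in the conventional corpus and of 477, 553 and 297 in the conventional jejunum (103506_f_at). Pkp2, the plakophilin of simple epithelia and heart, had 126, 162 and 96.0 in the conventional corpus and 382, 488 and 274 in the conventional jejunum (104337_f_at). Across the other regions and states Dsc2 and Pkp2 overlapped with the corpus: Dsc2 had 322 in germ-free corpus 2 and 193, 296 and 420 in the germ-free jejunum, and no Dsc2 probe set was called against the colon or in germ-free mice. Of the shared plaque proteins, Dsp, or desmoplakin, lay between 1712 and 3993 in all 24 libraries, Pkp3 between 135 and 472, and Pkp4 between 298 and 689. Dsp was called higher in the corpus than in the jejunum of germ-free mice, a call kept in 2 of 6 omissions of 1 array. Pkp3 was not called between conventional corpus and descending colon, though these did not overlap, at 429.5 to 451 and 207 to 267.

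Simple epithelial keratins were abundant in every region, including the corpus. Krt8 had a signal of 3069.6, 4256 and 2682 in the conventional corpus, against 6558, 10506 and 6782 in the conventional jejunum. Krt19 (92550_at) had 3463, 4682 and 2748 in the conventional corpus and 4936, 7407 and 6566 in the conventional jejunum. Krt20, the keratin of differentiated intestinal cells, had 397, 388 and 200.1 in the conventional corpus and 6394, 8601 and 2666 in the conventional jejunum. For Krt20 and Krt8 no library of the conventional corpus reached any of the jejunum. Krt18 and Krt7 differed less, Krt18 lying between 567 and 1585 in all 24 libraries and Krt7 between 138 and 404.

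**Figure D2:**
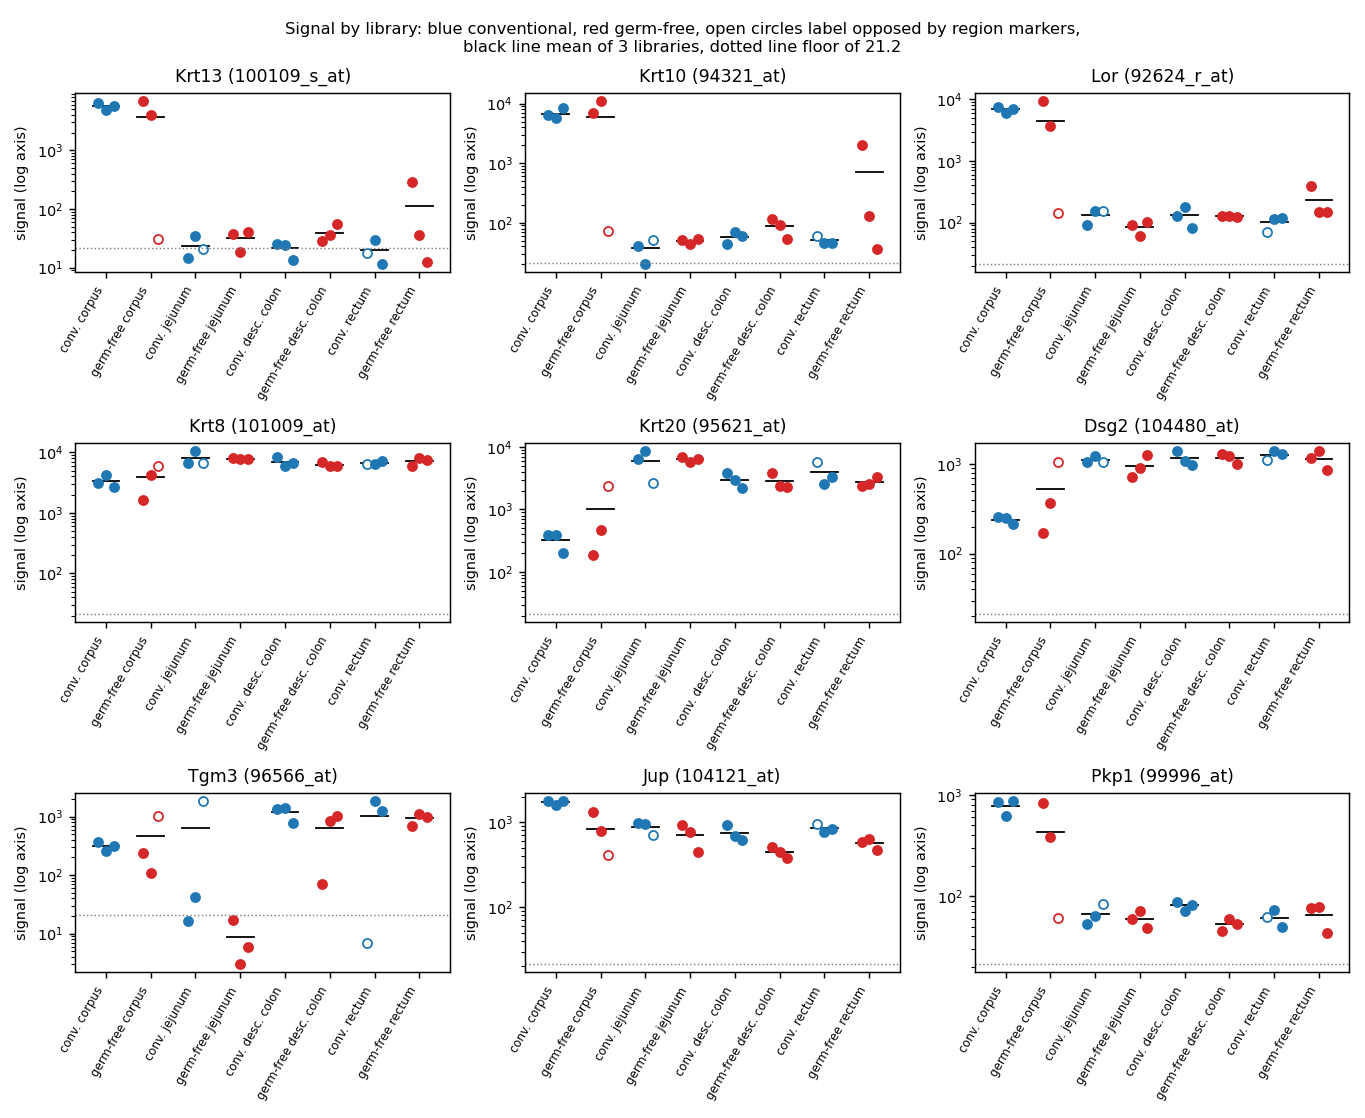
Signal by library on log axes for 9 member probe sets in the 8 groups, with conventional libraries in blue and germ-free ones in red, open circles for the 3 libraries whose markers oppose the label, black lines for the mean of 3 libraries and a dotted line for the floor of 21.2. Krt13, Krt10, Lor and Pkp1 are high in the 5 corpus libraries, Krt20 and Dsg2 are low there, Tgm3 is high in most descending colon and rectum libraries, and each open circle lies away from its own group for Tgm3.

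Averaged over the probe sets of a role, in mean log2 signal, the 14 stratified keratin probe sets stood at 9.50 to 9.70 in the 5 corpus libraries and 5.37 to 6.96 in the 18 libraries of other regions. The 9 cornified envelope probe sets stood at 9.76 to 10.4 against 4.94 to 7.55. The 6 simple keratin probe sets stood at 8.94 to 9.93 against 10.4 to 11.2. The roles thus moved in opposite directions, and the library labelled germ-free corpus 3 stood with the intestine in all 3, at 6.23, 6.05 and 10.6. Over single probe sets, 23 of 64 lay higher in all 5 corpus libraries than in all 18 others and 5 lay lower, compared with 6.16% and 4.42% of all 9033 probe sets tested. Of the 64, 10 passed the filter only through the 5 corpus libraries and so had to be higher there.

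Tests were made with limma, over all 9033 probe sets, with Benjamini-Hochberg adjustment and a threshold of 0.05 on the adjusted p. In conventional mice 31 member probe sets differed between corpus and jejunum. Of the 64 tested, 23 were higher in the corpus, where 10.9% of all probe sets were called higher, and 8 were lower, where 7.85% were. These counts, and those by role below, include the 10 probe sets that passed the filter only through the 5 corpus libraries. Dsc1, Ivl and Krt13 (100109_s_at) were among them. Such probe sets were tested only because they were high in the corpus, so their direction was fixed in advance. The later counts of corpus against jejunum or colon hold them too, and counts without them are not given here. Among the stratified keratins 11 of 14 were higher and 0 lower, with a median log2 difference of 3.92, and among the cornified envelope genes 7 of 9 were higher and 0 lower, with a median of 5.73, beside a median of 0.04 over all probe sets. Simple keratins gave 0 higher and 2 lower of 6 (median -0.91), desmosomal cadherins 1 higher and 3 lower of 5 (median -1.15), and plaque proteins 3 higher and 2 lower of 8 (median 0.45). Trp63 was higher and Krt12 lower, and no hair keratin or hair keratin-associated probe set was called. Smooth muscle markers were also higher in the corpus, in 8 of 8 probe sets, with a summed signal of 20979 to 29655 in the 5 corpus libraries and 5384 to 24934 in the 18 others; their part in the members' values was not tested.

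The log2 difference, corpus minus jejunum in conventional mice, was 7.83 ± 1.25 (SE) for Krt13 (100109_s_at; limma adjusted p = 0.000265) and 6.06 ± 0.87 for Krt4 (100421_at; limma adjusted p = 0.000147). It was 5.73 ± 0.89 for Lor (92624_r_at; limma adjusted p = 0.00022), 5.01 ± 0.60 for Dsc1 (limma adjusted p = 6.24e-05) and 3.01 ± 0.48 for Trp63 (limma adjusted p = 0.000279). These are differences on the floored log2 scale, so for genes near 21.2 in the jejunum they understate the change. Among the members lower in the corpus it was -4.07 ± 0.60 for Krt20 (limma adjusted p = 0.000163), -2.21 ± 0.39 for Dsg2 (104480_at; limma adjusted p = 0.000614) and -1.25 ± 0.32 for Krt8 (limma adjusted p = 0.0101). Krt18 differed by 0.34 ± 0.38 (limma adjusted p = 0.612) and Dsp by 0.39 ± 0.21 (limma adjusted p = 0.231), neither past the threshold.

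Without the 3 libraries whose markers oppose their labels, 33 members were called in this comparison, 24 higher and 9 lower, where 25.8% of all probe sets were called in either direction. Probe sets of 1 gene did not always agree: 2 of 3 were called for Krt13 and for Krt17, 1 of 2 for Dsg2 and 1 of 2 for Lor. Jup, Pkp2 (104338_r_at) and Dsc2 (97768_at) passed narrowly, with limma adjusted p = 0.0322, 0.0496 and 0.0396. When each of the 6 arrays compared was left out in turn, these calls were kept in 0, 1 and 2 of 6 fits. The call of the other Dsc2 probe set (103506_f_at) was kept in 1 of 6. For Dsc2 (97768_at) the corpus and jejunum libraries overlapped.

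Against the descending colon of conventional mice 30 members were called, 24 higher in the corpus (6.75% of all probe sets) and 6 lower (6.12%). This comparison shares its corpus libraries with the one above. Stratified keratins again gave 11 higher of 14 and cornified envelope genes 7 higher of 9. The log2 difference, corpus minus descending colon, was 7.90 ± 1.25 for Krt13 (100109_s_at), 8.64 ± 1.42 for Krtdap and -3.22 ± 0.60 for Krt20 (limma adjusted p = 0.00032, 0.000393 and 0.00105). Krt19 was also lower (92550_at), by -1.02 ± 0.30 (limma adjusted p = 0.0275). Krt33b, a hair keratin (97814_at), was higher, by 0.99 ± 0.26 (limma adjusted p = 0.0138), with a signal of 245, 219 and 290.3 in the corpus and 100.5, 133 and 150 in the colon. The other Krt33b probe set (162106_f_at) ran the other way and was not called, with 31.0, 27.4 and 44.6 against 57.8, 50.6 and 48.8. When each of the 6 arrays was left out in turn, the Krt33b call was kept 4 times and the Krt19 call 2 times. Without the 3 libraries 36 members were called, 26 higher and 10 lower, where 18.6% of all probe sets were called.

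In germ-free mice the same regional pattern was measured, with smaller differences for the genes given below while the library labelled germ-free corpus 3 stayed in its group. All groups share 1 estimate of the spread, so the standard errors given above for conventional mice also hold the spread from that library. Between corpus and jejunum 27 members were called, 23 higher in the corpus (13.2% of all probe sets) and 4 lower (8.57%). Of the 23 probe sets called higher in conventional mice 22 were called higher here, which is 95.7% of each list, and the 4 lower ones, Krt20, Krt8, Dsg2 and Pkp2, were all among the 8 of conventional mice. Krt13 differed by 4.90 ± 1.25 (100109_s_at; limma adjusted p = 0.00903) with the library and by 7.37 without the 3 libraries (limma adjusted p = 1.09e-07). Krt10 differed by 5.18 ± 1.31 with them and by 7.47 without, and Krt20 by -3.43 ± 0.60 with them and by -4.42 without.

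Without the 3 libraries 35 members were called in this comparison, 26 higher and 9 lower, where 29.1% of all probe sets were called. With all libraries kept, the median log2 difference over all probe sets was 0.16, and it was -0.10 when array medians were made equal. This turned the calls over all probe sets from 1193 higher and 774 lower to 643 higher and 1202 lower. For the members the split went from 23 and 4 to 21 and 7. The count of 27 with all libraries also rested on germ-free corpus 1 and 2, being 10 without the former and 12 without the latter. The library labelled germ-free corpus 3 was kept in both of these fits, and their shares over all probe sets are not given here.

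**Figure D3:**
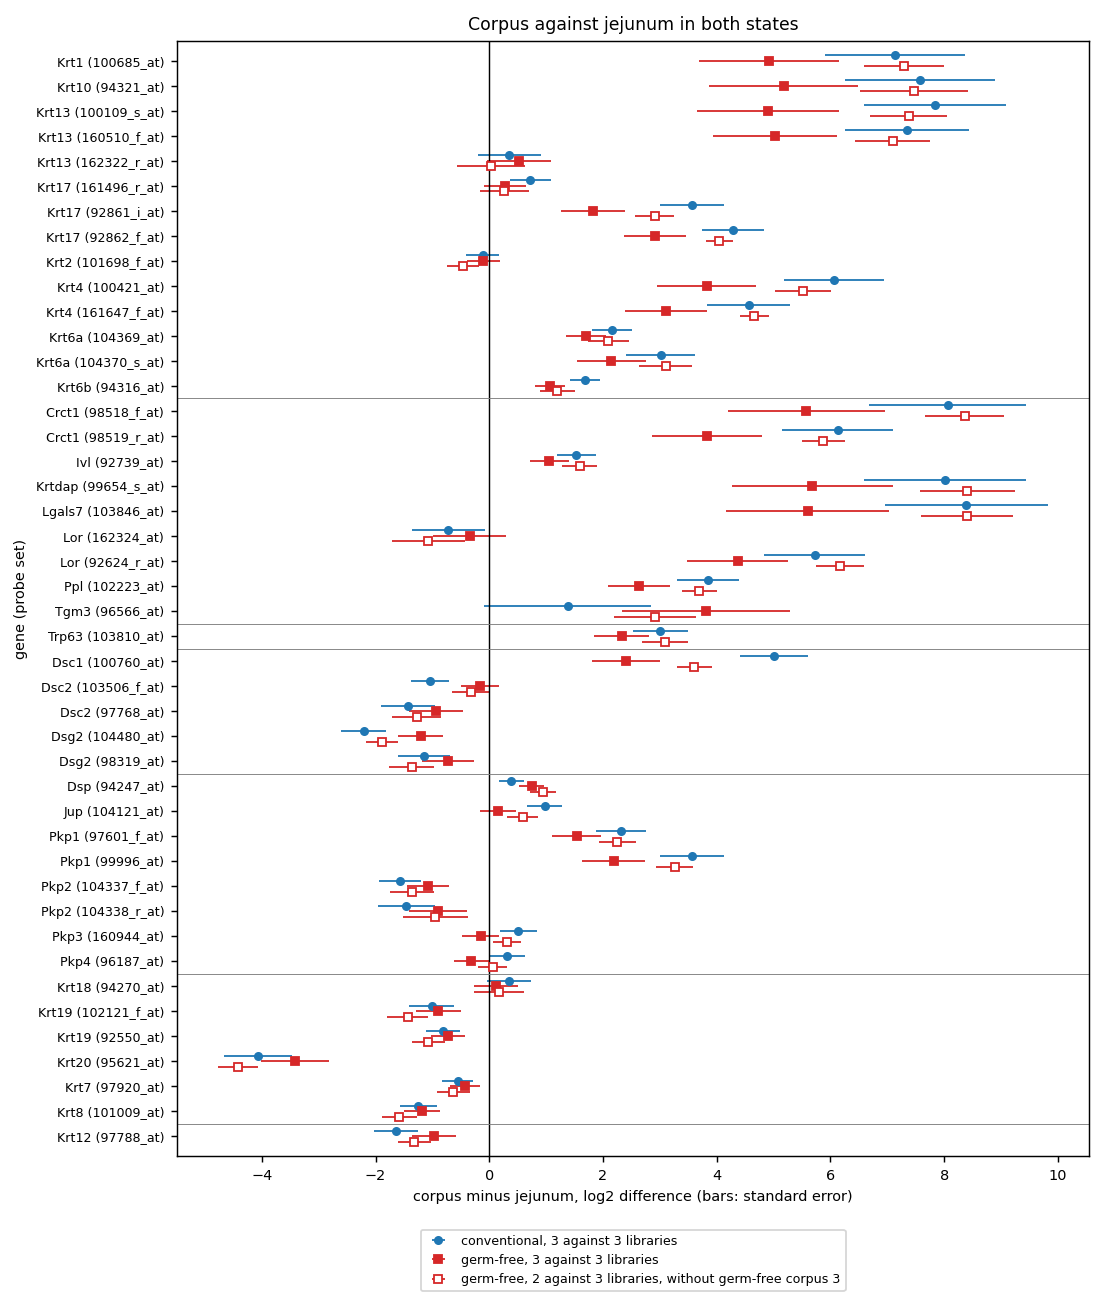
Log2 difference, corpus minus jejunum, with bars of 1 standard error for tested members other than hair keratins, in conventional mice (blue, 3 against 3 libraries), in germ-free mice (filled red, 3 against 3) and in germ-free mice without germ-free corpus 3 (open red, 2 against 3). Krt13, Krt10, Crct1 and Lgals7 lie between 4.90 and 5.60 with all germ-free libraries and between 7.37 and 8.41 without that library, and Krt20 lies on the left in all 3 fits.

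Against the germ-free descending colon 0 of the 64 members were called by limma, as were 0% of all probe sets, although 33 members and 1315 of all probe sets had an unadjusted p under 0.05. Without the 3 libraries 35 members were called, 26 higher in the corpus (8.07% of all probe sets) and 9 lower (9.59%). Krt1 then differed by 7.49 (limma adjusted p = 1.85e-07), Lor by 5.56 (92624_r_at; limma adjusted p = 1.27e-08) and Krt20 by -3.21 (limma adjusted p = 1.37e-06). The count was 33 when the library labelled germ-free corpus 3 alone was left out.

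One envelope gene belonged to the hindgut. Tgm3, a transglutaminase that crosslinks envelope and hair proteins, had a signal of 1361, 1380 and 788 in the conventional descending colon and of 1821 and 1243 in conventional rectum 2 and 3. It had 362, 253 and 315 in the conventional corpus, 16.2 and 42.6 in conventional jejunum 1 and 2, and 17.2, 3.0 and 6.0 in the germ-free jejunum. In each of the 3 libraries with opposing markers Tgm3 went with the markers and not the label, at 1833 in conventional jejunum 3, 6.9 in conventional rectum 1 and 1024 in germ-free corpus 3. In germ-free descending colon 1, where Hoxb13 was low, it stood at 70.2, against 826 and 1014 in the other libraries of that group.

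Between descending colon and jejunum 0 members were called in conventional mice, where limma called 0% of all probe sets (2 members and 989 of all probe sets had an unadjusted p under 0.05). In germ-free mice 0 were called, where it called 11.8% (4 members and 2488 of all probe sets had an unadjusted p under 0.05). Tgm3 differed by 3.27 ± 1.47 in conventional mice (limma adjusted p = 0.433) and by 4.20 ± 1.47 in germ-free mice (limma adjusted p = 0.0679). Without the 3 libraries, 4 members were called in conventional mice (11.5% of all probe sets) and 5 in germ-free mice (19.4%). Tgm3 was then higher in the colon by 5.24 (limma adjusted p = 4.99e-05) in conventional and by 4.20 (limma adjusted p = 0.000128) in germ-free mice. Krt20 was lower in the colon than in the jejunum by -1.34 and -1.21 (limma adjusted p = 0.015 and 0.00978), and Pkp3 by -0.78 and -0.92 (limma adjusted p = 0.042 and 0.00529).

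Krt12, known as a keratin of the cornea, was brightest in the jejunum, with a signal of 304 and 357 in conventional jejunum 1 and 2 and of 190, 240.4 and 196 in the germ-free jejunum. In the conventional corpus it had 114, 54.3 and 70.2. It stood at 122 in the library labelled conventional jejunum 3 and at 208 in that labelled conventional rectum 1, again with the markers. Krt12 was lower in the conventional colon than in the jejunum by -1.49 (limma adjusted p = 0.00179) once the 3 libraries were left out. Pkp4 and Krtap5-4 made up the 5 called in germ-free mice with Tgm3, Krt20 and Pkp3.

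Between rectum and descending colon no member passed the threshold. In conventional mice limma called 0 of 64 members, where 0.0111% of all probe sets were called, and the lowest p belonged to Krt81, Krt84, Pkp3 and Krt6b. An unadjusted p under 0.05 was found for 0 members and 168 of all probe sets. In germ-free mice limma called 0 of 64, again where 0.0111% were called, and the lowest p belonged to Krtap13, Krtap5-4, Krt81 and Krtdap. There 2 members and 198 of all probe sets had an unadjusted p under 0.05. With the spread between these libraries, Krtdap differed in germ-free mice by 2.42 ± 1.42 (limma adjusted p = 1), resting on 1 library: its signal was 1239, 154 and 42.5 in germ-free rectum 1 to 3.

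That library carried squamous and gastric gland signal together. In germ-free rectum 1, Krt10 stood at 2006, or 29.5% of the conventional corpus mean, against 131 and 35.7 in germ-free rectum 2 and 3. Krt4 stood at 1029 (11.6%), Lgals7 at 492 (6.86%), Krt1 at 458 (6.54%), Lor at 398 (5.80%) and Krt13 at 285 (5.01%). The gastric genes Atp4a and Cblif, which encodes intrinsic factor, stood at 21.4% and 15.7% of their corpus means. Of the 23 probe sets called higher in the conventional corpus than in the jejunum, 13 were higher in germ-free rectum 1 than in both its fellows; the same count over all probe sets is not given here. Dsc1, at 19.1, and Krt17 (92862_f_at), at 17.1, were not.

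Germ-free jejunum 3 also held gastric gland signal. Atp4a stood there at 874, or 9.52% of the conventional corpus mean, and Atp4b at 401, or 6.38%. Krtdap at 32.4, Krt10 at 52.6, Lgals7 at 11.0 and Crct1 at 4.7 (98518_f_at) lay within or next to the range of germ-free jejunum 1 and 2. Of the same 23 probe sets, 14 were higher in germ-free jejunum 3 than in both its fellows, mostly by small margins. The array median there was 88.4, against 68.6 and 69.2 in the fellows, and this count over all probe sets is not given here. Krt4 (100421_at) stood at 307, or 3.46% of its corpus mean, against at most 2.30% in the fellows, and Krt13 (160510_f_at) at 1.31% against 0.59%. For Krtdap, Krt10, Lgals7 and Crct1 (98518_f_at) the share was below 1% in this library and between 5.53% and 29.5% in germ-free rectum 1. Where the signal came from was not tested.

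**Figure D4:**
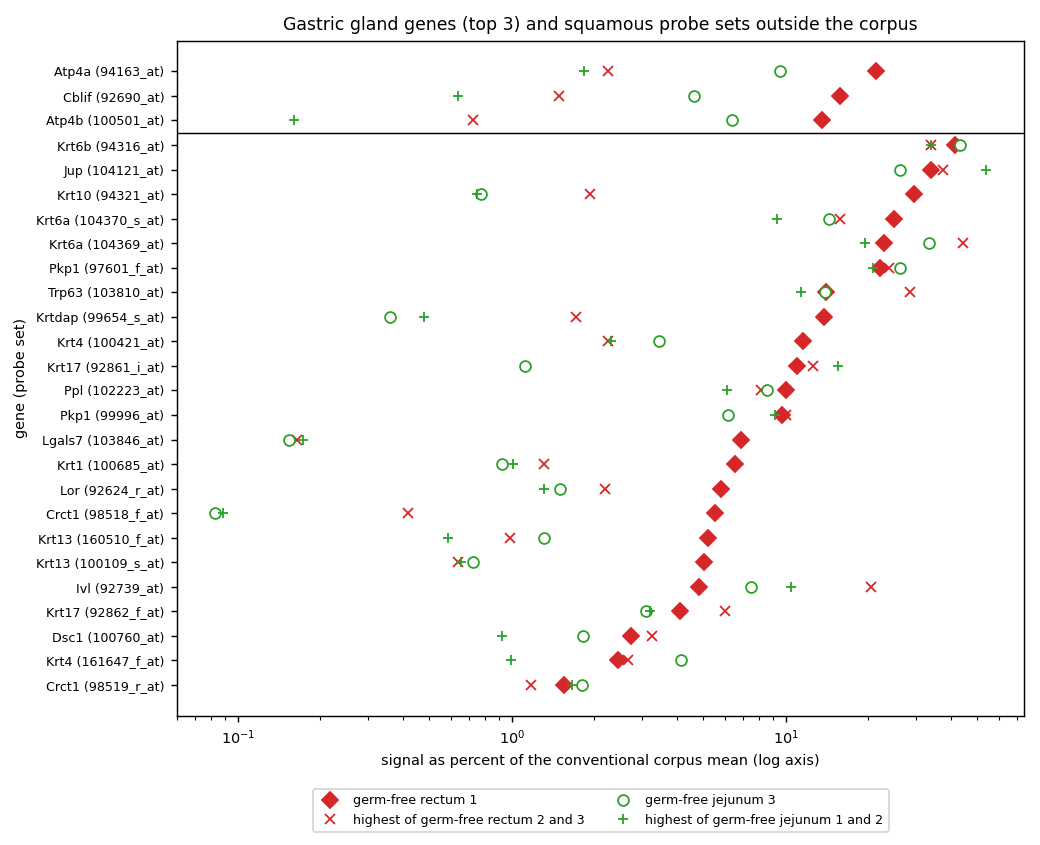
Signal as percent of the conventional corpus mean, on a log axis, for 3 gastric gland genes and for the 23 member probe sets called higher in the corpus, in germ-free rectum 1 (diamonds), germ-free jejunum 3 (circles) and the highest of the other 2 libraries of each group (crosses and plus signs). Atp4a lies at 21.4% in the rectum library and 9.52% in the jejunum library, whereas Krtdap lies at 13.8% and 0.36%.

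Microbial state was set against the members in each region. In the corpus limma called 0 of 64 members and 0% of all probe sets (10 members and 817 of all probe sets had an unadjusted p under 0.05). When the 3 libraries were left out, 2 members and 610 of all probe sets had an unadjusted p under 0.05. The members of lowest p were Dsc1, Jup, Pkp1 and Krt17, all with lower estimates in germ-free mice, and these rest in part on the library labelled germ-free corpus 3. Dsc1 differed by -2.63 ± 0.60 (limma adjusted p = 0.0962), and by -1.43 without the 3 libraries (limma adjusted p = 0.116). The estimate went from -1.18 to -0.74 for Jup, from -1.53 to -0.45 for Pkp1 (99996_at) and from -1.49 to -0.41 for Krt17 (92861_i_at) when they were left out, with limma adjusted p = 0.582, 0.902 and 0.915. The 3 conventional corpus libraries, at 584 to 856, lay above the 2 germ-free ones whose markers fit, at 165 and 404. Without germ-free corpus 1, 7 members were called. The germ-free group of that fit held only germ-free corpus 2 and the library labelled germ-free corpus 3. The share of all probe sets called in it is not given here. Germ-free corpus 1 had skeletal muscle signal (Acta1, skeletal actin, at 3289 against 14.5 to 48.7 in the other corpus libraries), whose part was not tested.

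In the jejunum 0 of 64 were called, where 0.465% of all probe sets were. There 0 members and 1185 of all probe sets had an unadjusted p under 0.05, and the lowest p belonged to Dsc2, Tgm3, Krtcap2 and Pkp4. In the descending colon 0 were called, where 0.0111% were, with Krtap5-4, Krtcap2, Krtap13 and Krt32 of lowest p. An unadjusted p under 0.05 was found for 8 members and 733 of all probe sets. In the rectum 0 were called, where 0.0111% were, with Krt32, Krtdap, Pkp3 and Jup of lowest p. Here 3 members and 315 of all probe sets had an unadjusted p under 0.05. A difference of the state effect between regions was called for 0 members, where limma's moderated F called 0.0221% of all probe sets. By that test 1 member and 488 of all probe sets had an unadjusted p under 0.05. The lowest p was that of Dsc1 (limma adjusted p = 0.89), followed by Krtdap, Krt17 and Dsc2.

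Averaged over the 4 regions, 1 of 64 members differed between germ-free and conventional mice, where 1.68% of all probe sets were called. Jup, or plakoglobin, which binds cadherins in both desmosomes and adherens junctions, was lower in germ-free mice by -0.72 ± 0.15 on the log2 scale (limma adjusted p = 0.0231). In the corpus it had a signal of 1774, 1607 and 1759 in conventional mice and of 1334, 782 and 415 in germ-free mice. In the jejunum it had 978, 948 and 710.3 against 921, 766 and 447. In this region the groups overlapped, and in the corpus they did not.

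In the descending colon Jup had 934, 693 and 622 in conventional mice and 509, 444 and 374 in germ-free mice. In the rectum it had 950.4, 769 and 833 against 583, 641 and 467. Neither of these regions showed overlap, and the estimate was negative in all 4. The 5 lowest Jup signals, 374 to 467, were those of the 5 germ-free arrays with the highest array medians. Every other library had at least 509. The part of the array median in the Jup difference was not tested. The mean difference was -0.63 (limma adjusted p = 0.0228) without the 3 libraries. The call was lost without conventional descending colon 1 (limma adjusted p = 0.0522). Jup was also higher in the corpus than in the colon of conventional mice, by 1.21 ± 0.31 (limma adjusted p = 0.012). That call and the one against the jejunum were lost when array medians were made equal (limma adjusted p = 0.0573 and 0.133).

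Some hair keratin probe sets were higher on arrays with a high median signal. The 12 tested probe sets had a mean log2 signal of 7.08 to 7.36 in germ-free corpus 3, germ-free descending colon 2 and 3, germ-free jejunum 3 and germ-free rectum 3, and of 5.94 to 6.77 in the other 19 libraries. Of the 12, 4 lay wholly above the 19 libraries in these 5, namely Krt32 (162214_r_at), Krt33b (162106_f_at), Krt81 (161175_r_at) and Krt84 (162328_f_at). The others overlapped, among them Krt35, Krt71, Krt86 and the other tested probe sets of Krt32, Krt33b and Krt81. The share of all probe sets that did so is not given here, so the pattern is not shown to be particular to hair keratins. Those 5 arrays also had the highest array medians, 88.4 to 103.7 against 68.6 to 85.9. Krt81, a hair shaft keratin (161175_r_at), had 51.8 to 116 in the 5 and at most 24 in the 19. All 5 were germ-free libraries, so for Krtap5-4, Krtap13, Krt32 and Jup the array median moves with the microbial state, and its part in their values was not tested. Summed signals of markers of hair and skin appendage ran from 370 to 582 in the 5 corpus libraries and from 262 to 607 in the 18 of other regions, and those of mesothelium and urothelium stayed at or under 151 and 216 in all of these.

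Other genes of squamous epithelium were listed apart from the members. Of 45 tested probe sets for barrier genes, 33 were higher in the conventional corpus than in the jejunum and 1, the claudin Cldn4, was lower, with a median log2 difference of 2.79, beside 10.9% higher and 7.85% lower among all probe sets. The 4 probe sets of lowest p were those of Alox12b, a lipoxygenase of the skin barrier, with a signal of 700 ± 94.4 (SD, n = 3) in the corpus and 6.9 ± 1.76 in the jejunum, of Gjb6, a connexin with 2 of them, and of Sprr2d, a crosslinked envelope protein (limma adjusted p at most 0.000117). Of 22 probe sets for transcription factors used in squamous epithelium, 15 were higher and 2 lower (Klf5 and Elf3). Sox2, a foregut factor, had 687 ± 101 against 15.8 ± 4.47, and Pitx1 had 1661 ± 90.5 against 247 ± 35.7 (limma adjusted p = 0.000126 and 0.000303), and Notch3 and Hopx were also higher. Both lists hold genes that the gastric glands or gut muscle also express, such as Sox2 and Notch3.

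Basal layer and hemidesmosome genes were mixed, with 3 higher (Col17a1, Cd44 and Postn), 0 lower and 10 uncalled of 13 tested probe sets. Among all probe sets 10.9% were higher and 7.85% lower. With the 3 libraries left out, 3 of the 13 were higher and 4 lower, where 25.8% of all probe sets were called in either direction. The 4 were for the integrins Itgb4 and Itga3 (2 probe sets), which bind the basement membrane, and for Plec, or plectin, which links filaments to hemidesmosomes. Genes of simple epithelium listed apart from the keratins gave 0 higher and 8 lower of 10 with all libraries, with a median of -3.02, where 7.85% of all probe sets were lower. In germ-free mice without the 3 libraries, barrier genes gave 37 higher and 1 lower of 45, and simple epithelium genes 0 higher and 9 lower of 10, where 29.1% of all probe sets were called in either direction.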

How the data were processed

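Expression was measured with Affymetrix arrays. The deposited values are linear signal intensities per probe set, which the authors had brought to a common trimmed mean of about 200.1 on every array, as the deposited values show; the signal algorithm is not given in the sources used here. Probe sets were named from GEO's platform annotation, and all 89 member probe sets with 1 gene matched a current Entrez gene. Groups were taken from the labels. Signals under 21.2 (the 25th percentile) were set to 21.2 and taken to log2; a probe set was tested if 3 or more arrays exceeded 51.5 (the 40th percentile), which, without 66 controls, left 9033. For 14 comparisons, limma 3.58.1 (R 4.3.3, trended moderation) fitted 8 group means to the 24 arrays, with Benjamini-Hochberg adjustment over all 9033 probe sets and a threshold of 0.05. The scripts were tested on simulated data. The members, gene lists and alternatives were chosen with earlier results of these data known, and the 2 fits that leave out 3 and 5 libraries were chosen after seeing the data. Named were the simple keratins and the main desmosomal and envelope genes, in each role up to 4 probe sets with the largest called regional difference, every member called for state or rectum against colon or else the 4 of lowest p, and up to 4 genes of lowest p in each related list. Krt5, Krt14, Krt15, Krt16, Dsc3, Krt81, Krt6a, Krt6b, Krt17 and those singled out in 1 library were named after their values were seen. No depth exists for arrays, and their number, 3 a group, limits the precision. Alternatives were the floor, the filter, quantile and median scaling, other samples in the fit, replicate blocks and left-out arrays.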

Additional observations from a re-analysis of the deposited data

How the results depend on the processing

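Counts are of member probe sets called by limma among those tested. No named member's call changed sign under any alternative run. In the germ-free corpus against jejunum the count fell from 27 to 1 when only the arrays of the groups compared entered the fit. Calls over all 9033 probe sets fell from 1967 to 422. Germ-free corpus against descending colon gave 18 with status and replicate number as a replicate block, 35 without the 3 libraries and 38 without the 5 (which also leave out germ-free rectum 1 and germ-free descending colon 1), instead of 0. Over all 9033 probe sets, 234 were called with that block and 1595 without the 3 libraries, instead of 0. Descending colon against jejunum gave 4 and 5 without the 3 and 5 libraries in conventional mice, instead of 0, and without the 3 libraries 1039 of all 9033 probe sets were called. In germ-free mice it gave 2 with quantile normalization, 1 with a floor at the 10th percentile, 1 with only the arrays compared, 3 with the replicate block, 5 without the 3 libraries and 7 without the 5. In that order, up to the fit without the 3 libraries, 952 of 8867 and then 1066, 725, 1411 and 1753 of 9033 probe sets were called. The main fit called 1068. Germ-free against conventional corpus gave 1 with no filter on low values (9 of all 12422 probe sets) and 1 with a floor at the 40th percentile (15 of all 9033), and descending colon gave 2 without the 5 libraries. The mean over regions gave 2 with quantile normalization, 2 with the filter at the 60th percentile, 0 with the replicate block and 2 without the 5 libraries, instead of 1. Over all probe sets the first 3 of these fits called 181 of 8867, 117 of 6395 and 37 of 9033, and the main fit 152. The cause of these moves was not tested. Shares over all probe sets are not given here for the fits without the 5 libraries or for left-out arrays.

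Leaving out each array in turn gave 26 to 30 for conventional corpus against jejunum, 10 to 33 in germ-free mice, 25 to 29 for conventional corpus against descending colon and 0 to 33 in germ-free mice, 0 to 2 for descending colon against jejunum in either state, 0 to 7 for state in the corpus and 0 to 3 for the mean over regions. The 2 for descending colon against jejunum came without conventional jejunum 3, and in germ-free mice without germ-free descending colon 1 or germ-free jejunum 3. For the mean over regions the 3 came without germ-free corpus 1, and the 0 without conventional descending colon 1. Calls kept in every omission numbered 26 of 31, 9 of 27, 24 of 30 and 0 of 1 in the 4 comparisons with calls. With equal array medians the corpus calls of Jup in conventional mice were lost, and those of Ivl with a floor at the 40th percentile. Under the replicate block Jup's mean over regions had limma adjusted p = 0.0644. Equal replicate numbers were not taken as pairs, since no label says so and the correlation of deviations was over 0.1 in 16 of 36 pairs of the same state and number (median 0.0879, from -0.497 to 0.666). It was over 0.1 in 8 of 72 pairs of other numbers (median -0.0453), and the fitted block correlation was 0.12. Signals under the floor carry no order, which limits the folds of genes near it.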
